A study of Saccharomyces cerevisiae with 4 samples.

Results

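The 321 positions described here are deeply sequenced, weakly mutated cytidine-modification sites of Saccharomyces cerevisiae mRNA. They were selected by 2 rules from the 1892 sites that the authors list as high-confidence 5-formylcytidine (f5C): at least 1000 covering reads in each of the 4 libraries, and a mean mutated fraction below 11% over both treated libraries. A level below that cap is common in the list: 1623 of the 1892 sites have it at any coverage. Only 337 meet the coverage minimum, so depth does most of the selecting. The 321 sites lie in 221 genes or overlapping gene pairs, on all 16 nuclear chromosomes. They make up 17.0% of the listed sites, yet hold between 71.6% and 71.7% of the covering reads over the list in every library. Among the gene groups, the set held 31 sites in glycolytic and fermentation genes, 41 in cytosolic ribosomal protein genes and 30 in chaperone and heat shock genes.

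Poly(A)+ RNA came from yeast grown overnight in rich glucose medium from a colony picked off a plate. The labels name no strain or genotype. The treated libraries, replicates 1 and 2, were made from fragmented mRNA kept in 0.9 M pyridine borane for 24 h, and the input libraries, also replicates 1 and 2, from mRNA that skipped this step. Whether both replicates were grown as cultures of their own is not said. SDs (n = 2 throughout) therefore measure the spread between these libraries, which may be technical. The p-values come from read counts, so they measure counting error in these libraries and not the spread between cultures.

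5-Formylcytidine is an oxidation product of 5-methylcytidine and is best known from the anticodon of mammalian mitochondrial tRNA. Pyridine borane turns it into a base that reverse transcriptase copies like a uridine, so a modified position appears as a mismatch in treated RNA only. The level of a site below is the percentage of its covering reads that carry the mismatch. RNA was extracted from bulk culture, so few cells with many modified copies and many cells with few cannot be told apart. Positions are given as the authors' table gives them. The sources used here name no genome build, and exon, intron or UTR position was not analysed here.

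Both rules use measured values, so coverage and treated level are described without a test. Levels ran from 7.56% to 10.97%, with a median of 8.44% and quartiles of 8.08% and 8.88%. The medians of the treated libraries were 8.41% in replicate 1 and 8.44% in replicate 2. Below 8% lay 61 sites, 192 lay from 8% to under 9%, 49 from 9% to under 10%, and 19 at 10% or more. No listed site, deep or shallow, had a treated level under 7.5% in either replicate, so the set is bounded from below by the list and from above by the rule. With replicates summed, the Wilson 95% interval of a level was between 0.196 and 2.40 percentage points wide, with a median of 1.62 points. It reached below 7.5% at 116 sites and up to 11% or beyond at 16. Reads without molecular identifiers are not independent molecules, and all intervals and upper limits given here describe counting error alone.

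The lowest levels belonged to RPL16A, a ribosomal protein gene (YIL133C, chromosome IX, position 98889, 7.56% ± 0.0216), to CDC48, an ATPase that extracts ubiquitylated proteins (YDL126C, chromosome IV, position 236403, 7.56% ± 0.0569), and to SDH1, HSP82 and PGK1. Both replicates of a listed site are at 7.5% or more, so SDs this small follow from the selection at means so near 7.5%. At CDC48 the Wilson interval of the summed reads ran from 6.63% to 8.59%. The highest were at SIM1, a secreted cell wall protein of the SUN family (YIL123W, chromosome IX, position 128583, 10.97% ± 0.577), and at the glucokinase gene GLK1 (YCL040W, chromosome III, position 51394, 10.94% ± 0.112). They were followed by ENO2, VMA5 and CYS3. Of the 337 sites with 1000 or more reads in every library, 16 had levels of 11% or more and were left out by the cap. The nearest of these were ADE16 with 9.19% and 12.8% in replicates 1 and 2, UTH1 with 11.2% and 11.1%, and ARC40 with 11.7% and 10.7%. The farthest, in the glutamate decarboxylase gene GAD1, had 19.4% and 19.96%. On the other rule, the shallowest library of a member had 1004 reads, at ZUO1. The nearest sites that missed the coverage minimum were in BXI1, with 999 reads in its shallowest library and a level of 7.80%, and in ACO1 and SEC53, with 997 reads each and levels of 8.97% and 9.83%.

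**Figure D1:**
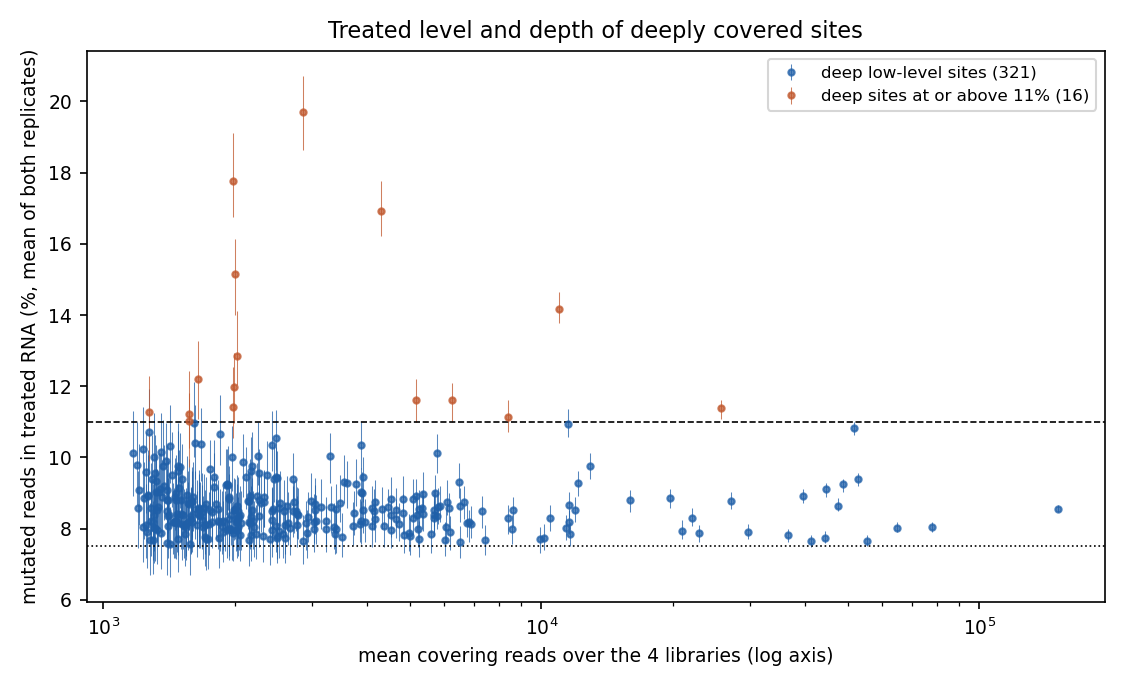
Mean treated level of each deep site (vertical axis, percent of mutated reads) against mean covering reads over the 4 libraries (horizontal log axis), with bars for the Wilson 95% interval of the summed reads. Blue points are the 321 deep low-level sites, orange points the 16 deep sites at or above 11%; the dotted line is 7.5% and the dashed line 11%. Most blue points lie below 9%, only 19 reach 10% or more, and the intervals narrow to the right.

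The deepest site of the whole list lay in TDH3, which encodes the main glyceraldehyde-3-phosphate dehydrogenase of glycolysis (YGR192C, chromosome VII, position 883079, minus strand). It had 184508 and 129535 covering reads in treated replicates 1 and 2 and 159431 and 132797 in the input libraries. Of the treated reads 8.59% and 8.53% were mutated, a level of 8.56% ± 0.0371 with a Wilson interval of 8.47% to 8.66%, against 75 and 52 mutated reads in input. The replicates thus differed by less than the width of that interval. Next came CCW12, a gene for a small mannoprotein of the cell wall (YLR110C, chromosome XII, position 369826), with 8.05% and 8.03% at 97060 and 65343 treated reads. The sites next in depth, in TDH1 and PGK1, had levels of 8.01% and 7.64%.

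A mean coverage of 10000 reads or more was reached by 30 sites in 18 genes, of which 21 sites in 10 genes belonged to glycolysis and fermentation. The others lay in the cell wall genes CCW12 and HSP150, in the heat shock genes HSP12 and HSP26, and in the cyclophilin gene CPR1. The remaining genes were ACT1, which encodes actin, RPS12, a ribosomal protein gene, and POR1, which encodes the porin of the outer mitochondrial membrane. Levels over the 30 sites ranged from 7.64% to 10.94% with an SD over sites of 0.851 points, while the largest SD between replicates of any of them was 0.410 points. Spearman's rho between the treated replicates was 0.932 over these 30 sites and 0.413 over all 321, as a description across sites that share libraries. At this depth the same sites were high, and the same low, in both treated libraries.

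Glycolysis, the pathway from glucose to pyruvate, and the fermentation of pyruvate to ethanol held 31 of the set's sites in 16 of the 25 genes on their list. Of all 36 listed sites in these genes, 86.1% belonged to the set. The median level was 8.56%, beside 8.44% over all 321 sites, and the range was 7.64% to 10.94%. PDC1, the main pyruvate decarboxylase, held 4 sites (YLR044C, chromosome XII, minus strand) at 9.27% ± 0.102, 7.85% ± 0.0319, 8.68% ± 0.152 and 8.18% ± 0.0750, all at 9865 or more reads per treated library. PGK1, the phosphoglycerate kinase, held 3 sites (YCR012W, chromosome III, plus strand). The first, at 138065, had 7.75% and 7.53% in the treated replicates, the second, at 138236, had 9.08% and 9.41%, and the third, at 138697, had 7.74% and 7.90%. In both libraries the middle site of PGK1 was therefore the highest, and its Wilson interval, 9.04% to 9.40%, did not overlap those of its neighbours.

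Sites of unequal level were also found along several other glycolytic transcripts, though not in all. In ENO2, an enolase gene (YHR174W, chromosome VIII, plus strand), the site at 452296 had 10.8% and 10.9% in the treated replicates. The site 217 nt further on, at 452513, had 7.81% and 7.69%. GLK1 had levels of 7.71%, 8.51% and 10.94% within 394 nt. The fructose-bisphosphate aldolase gene FBA1 (YKL060C) had 7.65%, 9.11% and 8.63% within 72 nt, and TDH1 8.01% and 9.38% at sites 223 nt apart. The pyruvate kinase gene CDC19 (YAL038W) had 7.98% and 7.84% at position 71942 and 8.95% and 8.86% at position 72978. By contrast, both sites of TDH2 had nearly equal levels, 8.86% ± 0.145 and 8.81% ± 0.312. The 3 sites of the phosphofructokinase gene PFK2, at 9.12% ± 1.26, 8.53% ± 0.567 and 8.12% ± 0.0762, had overlapping Wilson intervals between neighbours. In ENO2, CDC19 and GLK1 the order of the sites was the same in both treated libraries. TDH1, TDH2 and TDH3, and likewise ENO1 and ENO2, are near-identical copies, and their reads can be shared. In ENO1 a deep site at position 1001896 had 11.2% and 11.5% in the treated replicates and was left out by the cap. The ENO1 site in the set, at 1002113, had 8.58% and 7.99%.

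**Figure D2:**
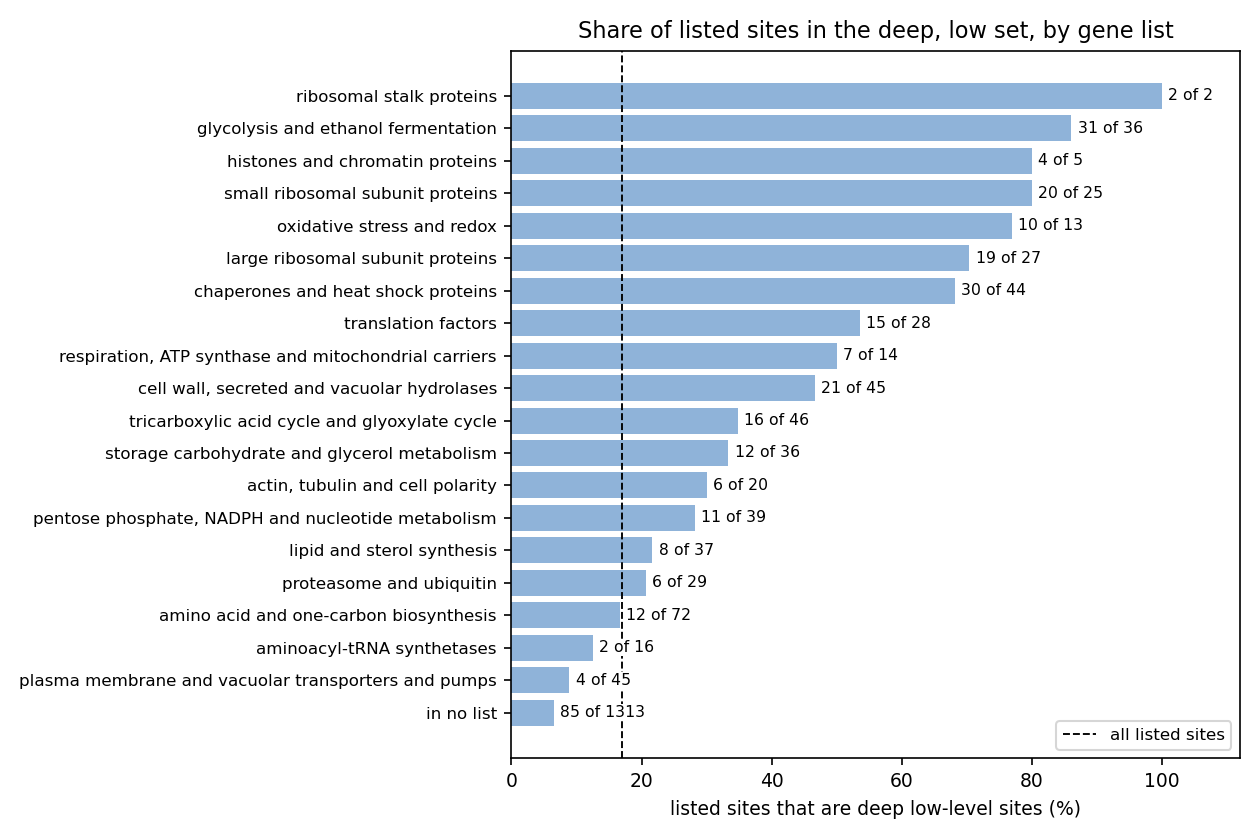
Share of the listed sites of each gene list that belong to the deep low-level set (horizontal axis, percent; the text gives the number of such sites of all listed sites). The dashed line is the share over all 1892 listed sites, 17.0%. Glycolysis stands at 31 of 36, the ribosomal protein lists at 19 of 27 and 20 of 25, and the genes in no list at 85 of 1313; the coverage rule favours abundant transcripts, so no test was made.

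Ribosomal proteins, the protein part of the cytosolic ribosome, are encoded in yeast largely by duplicate genes. Of their 54 listed sites 41 (75.9%) were in the set, in 36 genes: 19 sites in the large subunit, 20 in the small subunit and 2 in the stalk gene RPP0. Median levels were 8.09% in the large and 8.50% in the small subunit. ASC1, which encodes a small-subunit protein and signalling scaffold (YMR116C, chromosome XIII, minus strand), held 3 sites at 8.23%, 9.32% and 8.12%. The highest and lowest of these lay 24 nt apart. RPP0 had 8.83% and 10.1% at sites 26 nt apart, and RPL9A 10.04% and 7.71% at sites 38 nt apart. In each of these 3 close pairs the Wilson intervals did not overlap. RPS4B had nearly equal sites, with 8.33% ± 0.0735 and 8.48% ± 0.189.

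Duplicate genes with a site in both copies were RPS0A and RPS0B (7.86% and 8.61%), RPS4A and RPS4B, RPS17A and RPS17B (8.65% and 8.27%), RPL4A and RPL4B (8.04% and 8.83%), and RPL37A and RPL37B (7.98% and 8.09%). The same held for the histone H3 genes HHT1 and HHT2 (8.56% and 8.55%), the histone H2A genes HTA1 and HTA2 (8.18% and 9.26%), the Hsp90 genes and the TDH and ENO families. In all, 66 of the sites (20.6%) lay in 46 genes with a near-identical copy, 10 families had a site in 2 or more copies, and reads of such copies cannot be assigned with certainty. The other named lists of gene expression were smaller. Translation factors held 15 sites in 9 genes with a median of 8.37%, aminoacyl-tRNA synthetases 2 sites, in GUS1 (8.70%) and DPS1 (8.20%), and histones and chromatin proteins 4 sites.

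Among translation factors, CAM1, which encodes a subunit of the elongation factor that recharges eEF1A (YPL048W, chromosome XVI), held 3 sites at 9.23% ± 1.03, 10.02% ± 0.717 and 8.21% ± 0.250. TEF4, which encodes another form of the same subunit, had 8.22% ± 0.0900 and 8.41% ± 0.0966. PAB1, the poly(A)-binding protein gene, had 9.67% ± 1.30 and 7.88% ± 0.330. At CAM1 the first site had 9.96% in replicate 1 and 8.50% in replicate 2, a wider gap than that between its mean and the mean of the next site. The other sites of CAM1, 24 nt apart, had 9.51% and 8.04% in replicate 1 and 10.5% and 8.39% in replicate 2.

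Chaperones fold proteins and rescue aggregated ones. Their list held 30 of the sites in 12 genes, 68.2% of its 44 listed sites, with a median level of 8.47%. HSP104, which encodes the disaggregase of heat-shocked cells (YLL026W, chromosome XII, plus strand), had 8 sites, the most of any gene, and all 8 of its listed sites were in the set. Their levels ran from 7.77% ± 0.276 at position 89521 to 9.31% ± 0.625 at position 91057, over a span of 1903 nt, with mean coverage of 3027 to 5222 reads. The mean over the 8 sites was 8.65% in treated replicate 1 and 8.45% in replicate 2. HSC82 had 5 sites from 7.80% to 8.73% and HSP82 4 sites from 7.62% to 8.74%; these encode the Hsp90 chaperones and are near-identical. HSP42, which encodes a small heat shock protein that sorts aggregates, had 9.56% ± 1.10, 8.07% ± 0.349 and 8.14% ± 0.448. ZUO1, a ribosome-associated Hsp40, had 10.3% in both replicates at its middle site, against 9.07% and 8.41% at the others. The deepest chaperone site, in HSP12 (YFL014W, chromosome VI, position 107295), had 8.87% and 8.66%.

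**Figure D3:**
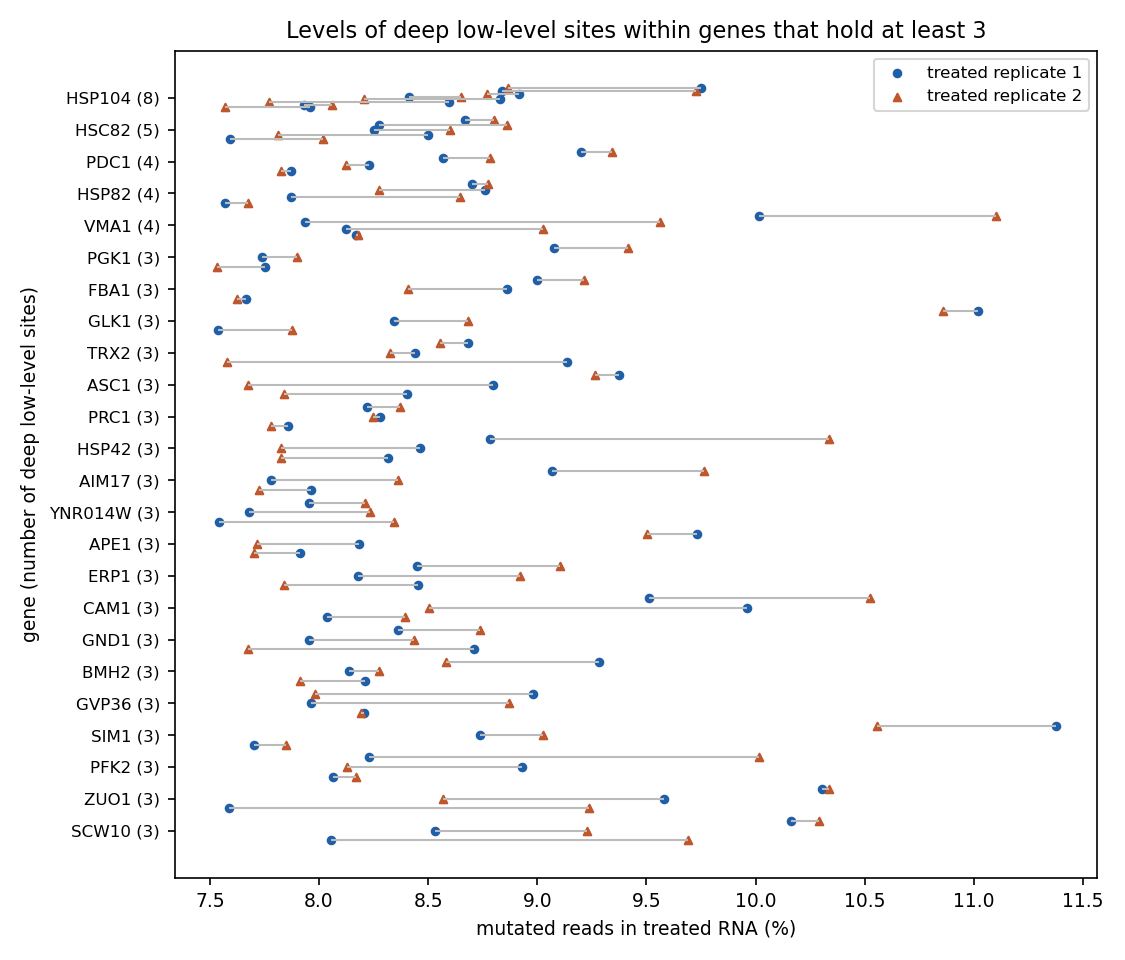
Levels of individual sites in the 24 genes that hold 3 or more deep low-level sites (vertical axis, gene and number of sites; horizontal axis, percent of mutated reads). Each grey line joins treated replicate 1 (circle) and replicate 2 (triangle) of 1 site. GLK1, PDC1, FBA1 and PGK1, the deepest of these genes, show short lines far apart, while lines in ZUO1, SCW10 and PFK2 are as long as the gaps between some of their sites.

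Redox enzymes held 10 sites in 7 genes, 76.9% of their 13 listed sites. TRX2, a cytosolic thioredoxin gene (YGR209C, chromosome VII, minus strand), had 3 sites spaced 3 nt apart at positions 912990, 912993 and 912996. The outer sites had 8.68% and 8.55%, and 8.44% and 8.33%, in replicates 1 and 2. The middle one had 9.13% and 7.58%, the widest gap of the 3. CTT1, the cytosolic catalase gene (YGR088W), also had sites 3 nt apart, but with levels of 7.997% ± 0.275 and 10.05% ± 0.528, whose Wilson intervals did not overlap. TSA1, a peroxiredoxin gene, had 7.52% and 8.84% in the replicates, and SOD2, the mitochondrial superoxide dismutase gene, 8.81% and 8.86%.

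The genes of mitochondrial metabolism held a smaller share of their listed sites in the set than the redox enzymes. Their share was still above the 17.0% over the whole list. The set held 16 of 46 sites (34.8%) in the tricarboxylic acid and glyoxylate cycles (median 8.37%). In respiration, ATP synthase and mitochondrial carriers it held 7 of 14 (50%, median 9.39%). POR1 (YNL055C, chromosome XIV, position 518634) had 9.76% and 9.77% in the replicates, the smallest difference of all 321 sites. The ATP synthase genes ATP2 and ATP1 had 10.3% ± 0.131, and 9.51% ± 0.707 and 7.69% ± 0.159. SDH3, a subunit of succinate dehydrogenase, had 10.4% ± 0.461 and 9.41% ± 0.875 at sites 2 nt apart. Citrate synthase (CIT1, 8.71% and 8.10%) and aconitase (ACO1, 9.39% and 8.25%) had 2 sites each.

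Storage carbohydrate genes held 12 sites in 8 genes, with a median of 8.70%. Among them were UGP1, which makes UDP-glucose (8.08% and 9.01%), the glycogen phosphorylase gene GPH1 (7.98% and 8.88%) and TSL1 of the trehalose synthase complex (8.46% and 8.88%). Vacuolar and cell wall hydrolases and secreted proteins held 21 sites in 12 genes, with a median of 8.30%. PRC1, which encodes carboxypeptidase Y (YMR297W, chromosome XIII), had 3 sites with 7.82% ± 0.0563, 8.26% ± 0.0213 and 8.30% ± 0.106, a range of 0.476 points. SIM1 had 10.97% and, 12 nt further on, 7.78% ± 0.104, a difference of 3.19 points and the largest between neighbouring sites of a gene in the set. SCW10 and APE1 held 3 sites each, from 8.87% to 10.2% and from 7.81% to 9.62%.

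Pentose phosphate, NADPH and nucleotide genes held 11 sites (median 8.55%), led by the 6-phosphogluconate dehydrogenase gene GND1 with 3 sites from 8.19% to 8.55% and by RNR4, a ribonucleotide reductase gene, with 8.62% and 8.05%. Lipid and sterol synthesis held 8 sites (median 8.65%), among them 2 each in the fatty acid desaturase gene OLE1 (8.15% and 9.26%) and in the phospholipid methyltransferase gene OPI3 (8.60% and 8.70%). Amino acid synthesis held 12 of its 72 listed sites, 16.7%, close to the 17.0% over the whole list. The proteasome and ubiquitin list held 6 sites, with 2 each in the polyubiquitin gene UBI4 (7.78% and 8.37%) and in RPN2 (9.13% and 8.60%), and the actin and polarity list 6, with 8.31% ± 0.150 and 8.03% ± 0.0317 in ACT1. Of the 53 genes on the transporter and pump list, 25 had a listed site. Only VMA1, the catalytic subunit of the vacuolar proton pump, had sites in the set, at 8.75%, 8.17%, 10.6% and 8.58%. These were 4 of the 45 listed sites of that list (8.89%), beside 17.0% over all listed sites. Other subunits of this pump, such as VMA5, were not on that list, and neither was the transporter gene PTR2, with a site at 9.09% in the set. A list of 15 subunits of this pump, drawn up after the values had been seen, held 9 sites in 6 genes, with VMA5 at 10.7% ± 0.313 as the highest. The remaining 85 sites lay in 64 genes of no list. Among the latter, AIM17, BMH2, ERP1, GVP36 and YNR014W had 3 sites each.

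One site per gene was found in 155 of the 221 genes (70.1%), 2 sites in 42, 3 in 19, and 4 or more in 5. In the 66 genes with 2 or more, neighbouring sites formed 100 pairs, with a median gap of 281 nt and a range of 2 to 1501 nt. A gap of 5 nt or less was found in 14 pairs: 5 were 2 nt apart (HSP104, IPP1, SCW10, SDH3 and TOM40), 8 were 3 nt apart and 1, in PDC1, 4 nt apart. Sites this close are read from largely the same fragments. The median difference in level between neighbours was 0.606 points in these 14 pairs, 0.827 points in the 25 pairs within 50 nt and again in the 29 within 100 nt, and 0.725 points in the 71 pairs farther apart. Over all pairs it was 0.757 points. Both levels of every pair lie between the 7.5% floor and the 11% cap, and close sites above the cap are left out. Nothing is therefore read from these differences about distance. The Wilson intervals were disjoint in 26 of the 100 pairs, as a description of counting error within levels that the selection bounds on both sides. The share over neighbouring pairs of the whole list was not counted, so this number is not read as particular to the set. In 40 of the 221 genes another listed site fell outside the set, through its depth or its level. One was SSB1, whose site in the set had 8% and 8.06%, while a site 9 nt away reached 14.3% and 16.0%.

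The rule for the set took the mean of the treated replicates and not their difference. Every listed site has 7.5% or more in each replicate, however, so the list itself limits how far the replicates can differ. The difference favoured replicate 2 at 169 of the sites and replicate 1 at 152. Thus 52.6% were higher in replicate 2, beside 58.2% over all 1892 listed sites. The median difference, replicate 2 minus replicate 1, was 0.0508 points, and it changed sign at deeper cuts, to -0.0431 points at a coverage minimum of 2000 and -0.0448 at 5000. Pooled over the set, 8.54% of 2220916 reads were mutated in treated replicate 1 and 8.53% of 1552916 reads in replicate 2. In the other 1571 listed sites, 932 were higher in replicate 2 and the pooled fractions were 9.61% and 9.89%. By class of mean coverage over the whole list, the median difference was 1.56 points under 200 reads, 0.239 points from 200 to 500, and -0.0695 points from 500 to 1000. Among the deep low-level sites it was 0.114 points from 1000 to 2000 reads, -0.0477 from 2000 to 5000, 0.119 from 5000 to 10000 and -0.0449 above that.

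When the read counts of both libraries were set against each other by Fisher's exact test (two-sided), with Benjamini-Hochberg adjustment over the 1892 listed sites, 0 of the 321 sites differed between the treated replicates, as did 0.0% of the list. At an unadjusted p of 0.05 the test called 13 sites (4.05%), beside 2.75% of the list. Of these, 6 were higher in replicate 2 and 7 lower, beside 2.06% and 0.687% of the list. The smallest unadjusted p was 0.00252, at the middle TRX2 site (adjusted exact p = 1), followed by APE3 (9.48% and 7.997%) and TSA1. The other 10 lay in FBA1, GSY1, TDH1, RPL4B, PET9, ENO1, RPS4A, DAK1, SDH1 and VMA6. The smallest differences, after POR1, were at CPP1, VMA1 (position 128472), RPL6A and FAS2. The largest absolute differences, 2.28, 2.23 and 2.20 points, were at GSY1, VMA6 and SDH1, followed by DAK1 and RPL4B, all at mean coverage under 2000 reads. The test compares these 2 libraries and not conditions. The floor of 7.5% in each replicate limits the differences it can meet, so the count of 0 is not read as agreement.

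The median absolute difference was 0.444 points, and the median counting standard error of a difference 0.840 points. The difference lay inside its 95% counting interval around 0 at 307 of the 321 sites (95.6%). The mean squared ratio of difference to counting error was 0.940 over the set, beside 0.711 over all listed sites. Counting error alone, without a floor, gives a value near 1. In the set the ratio was 0.837 from 1000 to 2000 reads of mean coverage and 0.898 from 2000 to 5000. It was 1.33 from 5000 to 10000 reads and 1.07 over the 30 deepest sites. The floor of 7.5% in both replicates narrows these differences, and its part was not tested. Over the 30 deepest sites the median absolute difference fell to 0.152 points and the largest, at ENO1, was 0.580 points.

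**Figure D4:**
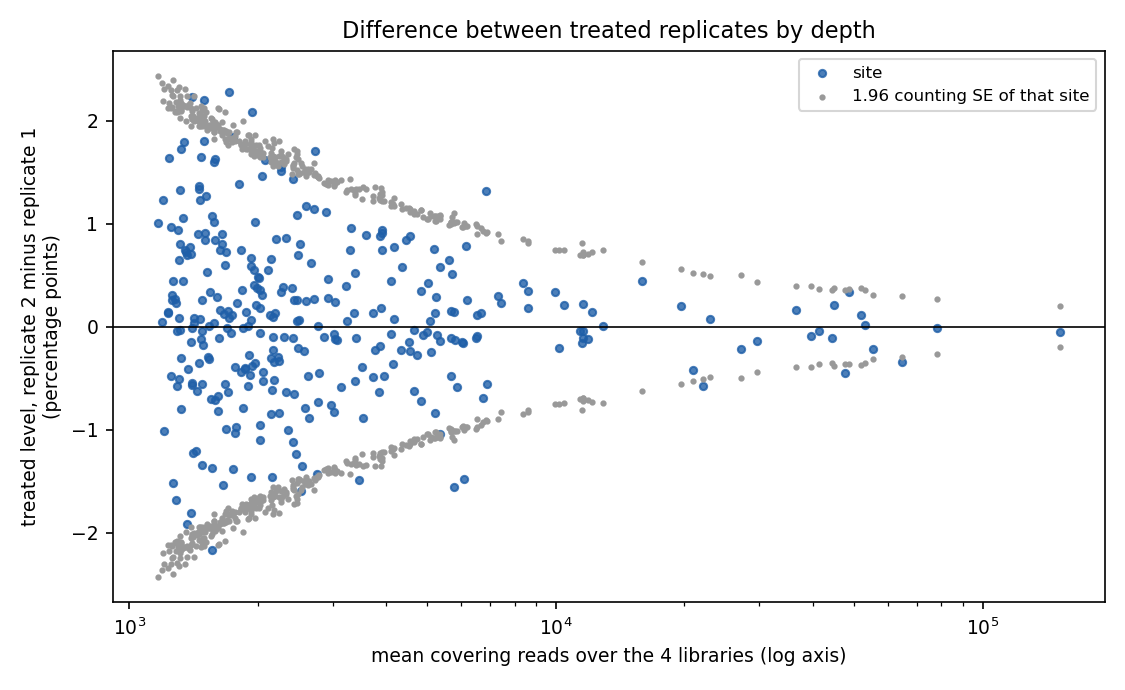
Treated level of replicate 2 minus that of replicate 1 (vertical axis, percentage points) against mean covering reads (horizontal log axis) for the 321 deep low-level sites. Grey points mark the 95% counting interval around 0 of each site, and 307 blue points lie inside them. The largest differences are over 2 points under 2000 reads and at most 0.580 points above 10000.

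Input RNA gives the mutated fraction without treatment at the same positions. Over the set 939 of 1944969 input reads were mutated in replicate 1, which is 0.0483% with a Wilson interval of 0.0453% to 0.0515%. In replicate 2 it was 742 of 1599739 reads, 0.0464% with an interval of 0.0432% to 0.0498%. The intervals overlap. The pooled fraction of both, 0.0474%, was 180 times below the pooled treated fraction, beside 229 times in the other listed sites. No listed site had a treated level under 7.5% in either replicate. The treated side of this ratio was thus bounded from below by the list, and nothing is read from its size. In the other listed sites the pooled input fraction was 0.0424%, with a Wilson interval of 0.0391% to 0.0459%, beside 0.0452% to 0.0497% in the set.

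At 52 sites (16.2%) neither input library had a mutated read, which allows input shares of up to 0.0319% at the deepest of them, a site of PRC1, and 0.133% at the shallowest. The pooled fraction alone, spread over the sites by coverage, would leave 43.0 sites without a mutated read. The highest input fraction was 0.215% in TIF3, which encodes translation factor eIF4B (YPR163C, chromosome XVI, position 868992), with 4 and 2 mutated reads among 1519 and 1269. It was followed by PAB1 (0.204%), VMA13 (0.180%), SHP1 (0.172%) and YNL194C (0.143%). Each of these rests on 7 mutated reads or fewer. Among the 30 deepest sites the input fraction ran from 0.0179% at GLK1 to 0.0857% at PDC1. GLK1 thus paired the lowest input fraction of the 30 with their highest treated level. Over the 321 sites Spearman's rho between input fraction and treated level was 0.139, and that between both input libraries 0.0973, as descriptions of sparse counts.

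Between the input replicates 0 sites differed by Fisher exact test after adjustment over the list, as did 0.0% of the list. At an unadjusted p of 0.05 it called 3 sites (0.935%), beside 0.159% of the list: HSP26 with 1 of 11316 and 9 of 9129 mutated reads, RPS0A with 0 and 4, and GLK1 at position 51144 with 0 and 4. Shallower sites, with few mutated input reads, can seldom reach such a p. Against input, 321 of 321 sites had a higher treated fraction by Fisher exact test on summed reads, as did 100% of the list. The sites were chosen on their treated level, which this contrast uses, so nothing is read from that count.

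**Figure D5:**
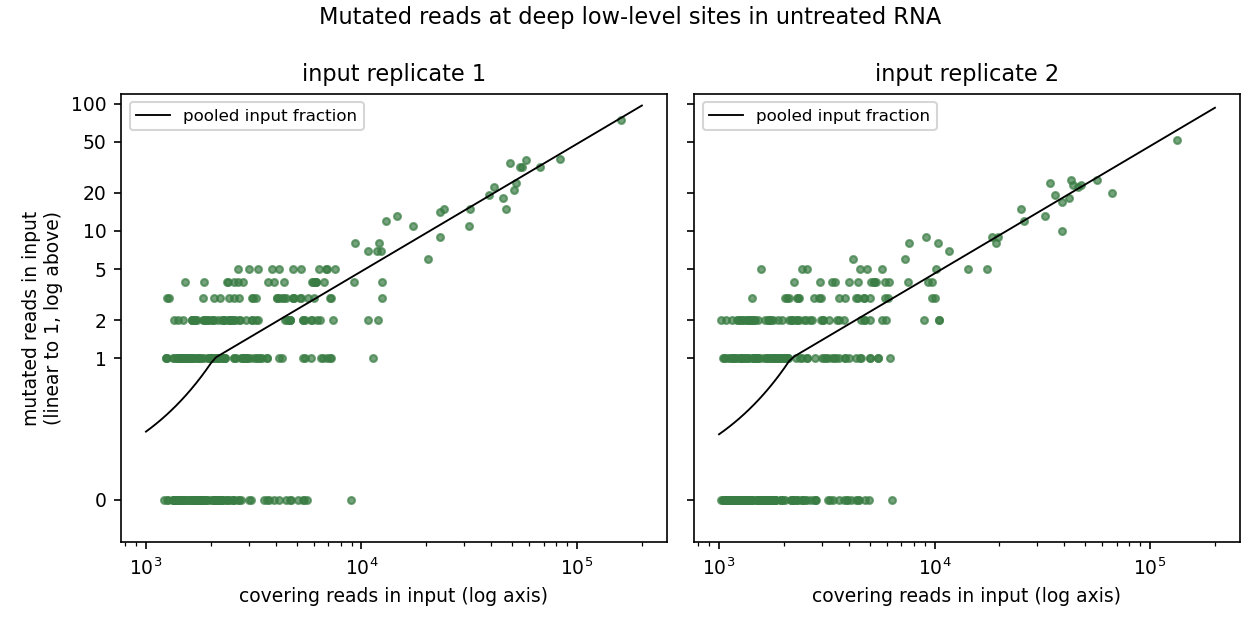
Mutated reads (vertical axis, linear to 1 and logarithmic above) against covering reads (horizontal log axis) at the 321 sites in input replicate 1 (left) and replicate 2 (right). The line is the pooled input fraction of each library, 0.0483% and 0.0464%. Points at 0 are the 103 and 119 sites without a mutated read in that library, and TDH3, at the upper right, lies near the line in both.

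In the authors' deposited table the fold of treated over input fraction is listed as infinite at 103 of these sites in replicate 1 and at 119 in replicate 2. In the authors' deposited table the finite folds run from 30.8 at TIF3 to 888 at HSP26 in replicate 1, with a median of 137, and from 33.3 at PAB1 to 567 at GLK1 in replicate 2, with a median of 128. The finite extremes thus go with many or few mutated input reads for the depth of the site in that library. The fold at HSP26 rests on 1 mutated read of 11316 in input replicate 1, while input replicate 2 had 9 of 9129. Coverage differed little between treated and input libraries over the set. The ratio of treated to input coverage had a median of 1.15 in replicate 1 and 0.975 in replicate 2, beside 1.14 and 0.972 in the other listed sites. It ranged from 0.928 to 1.32 and from 0.801 to 1.16.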

How the data were processed

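The authors deposited 1 table of sites that holds, per the file headers, counts of covering and mutated reads for each library. The deposited fraction was checked to equal mutated over covering reads. Each replicate also has the authors' ratio (fold change, treated over input), p-value and q-value, per the file headers. The submitters' processing notes name cutadapt and STAR without a version. The genome build was not given in the sources used here, nor was the site caller. Groups and replicates came from sample titles. The depth of whole libraries is unknown here. Sites were selected by a minimum of 1000 reads and a mean level below 11%. Gene symbols were matched by locus tag to RefSeq names (assembly R64), for 320 of 321 sites. Genes were named by rank in site number, coverage, level, input fraction and replicate difference, by list, and as paralog pairs; genes named outside these ranks, such as those with very close sites, were chosen after their values were seen. The sites, gene lists and naming rule were chosen with earlier results of these data known. Fisher exact tests, tested on simulated data, were run over all 1892 sites with Benjamini-Hochberg adjustment. Wilson intervals are at 95%, and the upper limit at 0 reads is 3 reads over the coverage. Alternatives were other coverage minimums and level caps, each replicate alone, summed levels, and genes without near-identical copies. Python 3.11.15, numpy 2.4.6, scipy 1.17.1, pandas 2.3.3 and matplotlib 3.10.9 were used. No sequence was used here.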

Additional observations from a re-analysis of the deposited data

How the results depend on the processing

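The number of sites, 321, was 624, 149 and 49 at coverage minimums of 500, 2000 and 5000 reads, and that of genes, 221, was 428, 101 and 32, by construction of these minimums; caps of 10% and 12% gave 302 and 330 sites. The median level was 8.41% to 8.44% with a replicate left out, 8.51%, 8.39% and 8.36% at the 3 coverage minimums, and 8.41% after subtracting input. The median replicate difference of 0.0508 points turned to -0.0431 and -0.0448 points at minimums of 2000 and 5000 reads, and the cause was not tested. Sites that differed between treated replicates numbered 0 after adjustment and 13 unadjusted, and 0 and 16 after removing the overall replicate odds ratio of 1.01. The pooled input fraction was 0.0464% to 0.0483% with a replicate left out, and its median over sites was 0.0418%. It was 0.0478% without the sites of 10000 or more reads, an alternative chosen after seeing the data. Treated against input, 321 sites were called also with the replicate block (Cochran-Mantel-Haenszel test) and with either replicate left out, and 149 at a minimum of 2000 reads; the contrast uses the treated level by which the sites were chosen, and nothing is read from these counts. Whether same-numbered treated and input libraries came from the same RNA is not said. Their deviations correlated at -0.182 for coverage and 0.0255 for mutated fraction over 321 sites. With so few libraries and sparse mutated input reads, these values cannot decide it. Depth limits single sites: near 1000 reads a replicate difference under about 2 points is within counting error.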
